A study of Arabidopsis thaliana with 16 samples.

Results

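Transcript levels of 5 auxin genes were followed across gynoecia of seu-3 plants, ant-1 plants, the double mutant seu-3 ant-1 and wild-type Col-0. YUC2, YUC4 and YUC6 encode auxin synthesis enzymes, and IAA18 and IAA30 encode Aux/IAA proteins. The 5 genes were taken by name from the 13621 genes that could be named on the ATH1 array, and each had 1 probe set. They were chosen with earlier results of these arrays known, and the study itself had listed IAA18, YUC4 and IAA30 for reduced levels on these same arrays, so their p-values are not independent evidence.

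Each genotype had 4 arrays, and each array was hybridized with RNA from a pool of 15 to 25 hand-dissected gynoecia of floral stages 8 to 10. SEU is an adaptor protein of transcriptional repressor complexes, and ANT is a transcription factor with AP2 domains. The seu-3 plants carried a mutant SEU allele, the ant-1 plants a mutant ANT allele, and the seu-3 ant-1 plants both, while Col-0 was the wild type. Values are MAS5 signals on a linear scale, on which only signals of the same probe set are compared. Median signal per array lay between 153 and 189, and between 20.0% and 24.4% of probe sets fell under the floor of 16 that was set before taking log2. The SEU transcript was lower than in Col-0 by 1.72 on the log2 scale in seu-3 and by 1.82 in seu-3 ant-1, both past the test in limma (adjusted p = 0.000274 and 1.01e-05), and its difference in ant-1 was -0.12 (adjusted p = 0.773). Of 7 gynoecium markers 1 was named here, SPT, a bHLH gene of carpel margin development, with 365 to 534 signal units in seu-3 ant-1 and 915 to 1372 in Col-0. The other 6 are not analysed here. Among them, the study reported AG as not statistically different between the genotypes, on its arrays and by qRT-PCR. Of 10 tapetum and pollen wall markers 3 were named, and their summed signal ran from 17.9 to 70.4 in seu-3, 19.0 to 60.7 in ant-1, 17.1 to 45.6 in seu-3 ant-1 and 15.7 to 90.5 in Col-0, with no more than 5 of 12 values above the floor in any genotype.

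Auxin is made from tryptophan in 2 enzymatic steps, of which the YUC flavin monooxygenases carry out the second. In the absence of auxin, Aux/IAA proteins bind auxin response factors and hold their target genes down. Auxin brings Aux/IAA proteins to the TIR1 and AFB F-box proteins, which mark them for degradation. IAA30 belongs to a small branch of the family that lacks the usual degradation motif. In the gynoecium, auxin is known for patterning the apical-basal axis and for the outgrowth of ovule primordia from the carpel margin.

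Of the 3 YUC genes chosen here, YUC4 was the one called lower in the double mutant. On the 4 seu-3 arrays its signal was 285, 310, 208 and 263, and on the ant-1 arrays 232, 257, 339 and 293. On the seu-3 ant-1 arrays it was 49.0, 90.5, 105 and 84.8, against 226, 289, 236 and 238 in Col-0. All 4 double mutant arrays lay below every array of the other 3 genotypes, while both single mutants overlapped Col-0. Relative to Col-0 the log2 difference in seu-3 ant-1 was -1.63 (standard error 0.21, limma adjusted p = 0.000119), a level of 32.2% of Col-0. In seu-3 the difference was 0.10 (95% confidence interval -0.35 to 0.55, adjusted p = 0.925), and in ant-1 it was 0.17 (95% confidence interval -0.28 to 0.62, adjusted p = 0.726). The double mutant was also lower than seu-3 (-1.73, adjusted p = 0.000354) and lower than ant-1 (-1.81, adjusted p = 8.41e-05). In order of mean signal, seu-3 ant-1 (82.3 ± 23.8, SD, n = 4) stood apart from Col-0 (247 ± 28.1), seu-3 (267 ± 43.5) and ant-1 (280 ± 46.4), and the last 3 did not differ from their neighbours beyond their spread.

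YUC2 lay higher in each mutant than in Col-0. Its signal was 76.5, 113, 124 and 130 in seu-3, 102, 89.8, 91.1 and 167 in ant-1, and 110, 69.8, 111 and 103 in seu-3 ant-1, against 44.3, 70.8, 33.0 and 67.2 in Col-0. Every seu-3 and every ant-1 array was above every Col-0 array, and in seu-3 ant-1 only replicate 2 fell below the highest Col-0 array. The difference from Col-0 passed the test in ant-1 (log2 1.08, standard error 0.28, limma adjusted p = 0.0415, 2.12-fold) and in seu-3 ant-1 (0.92, standard error 0.28, adjusted p = 0.0319, 1.89-fold). In seu-3 it was 1.08 (standard error 0.28, adjusted p = 0.0688), which did not pass. An exact two-sided permutation test of 4 against 4 arrays gave p = 0.0286 for seu-3 and for ant-1, the smallest it can give, and p = 0.0571 for seu-3 ant-1. No difference among the 3 mutants was called for YUC2, though the intervals are wide. The seu-3 ant-1 difference was -0.17 from seu-3 (95% confidence interval -0.77 to 0.44) and the same -0.17 from ant-1. Between seu-3 and ant-1 the difference was 0.00 (95% confidence interval -0.60 to 0.60).

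Both YUC2 calls lay near the threshold. The ant-1 call was kept only when Col-0 replicate 2, seu-3 replicate 1 or seu-3 ant-1 replicate 2 was left out, and was lost without any 1 of the other 13 arrays, where the log2 difference was between 0.87 and 1.21 and the limma adjusted p between 0.0502 and 0.104. The seu-3 ant-1 call was lost without Col-0 replicate 1 (0.84), Col-0 replicate 3 (0.70), or seu-3 ant-1 replicate 1 (0.85), 3 (0.85) or 4 (0.89). Over all alternatives the adjusted p ran from 0.0151 to 0.144 for YUC2 in ant-1 and from 0.0122 to 0.0933 in seu-3 ant-1.

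YUC6 had its highest signal in seu-3. The arrays read 111, 134, 78.7 and 96.0 in seu-3, 75.5, 85.5, 43.4 and 65.6 in ant-1, and 108, 22.0, 63.0 and 87.0 in seu-3 ant-1, against 20.1, 64.4, 34.4 and 52.2 in Col-0. All seu-3 arrays were above all Col-0 arrays, whereas ant-1 and seu-3 ant-1 overlapped Col-0. The log2 difference from Col-0 was 1.40 in seu-3 (standard error 0.46, unadjusted p = 0.0100, limma adjusted p = 0.169), 0.75 in ant-1 (adjusted p = 0.431) and 0.62 in seu-3 ant-1 (95% confidence interval -0.38 to 1.62, adjusted p = 0.399), and none was called. The seu-3 ant-1 arrays of YUC6 spread widely (SD 1.02 on the log2 scale, n = 4), with replicate 2 near the lowest Col-0 array. By mean log2 signal the order was Col-0 (5.29), seu-3 ant-1 (5.91), ant-1 (6.03) and seu-3 (6.69), and no neighbours in it differed beyond their spread.

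**Figure D1:**
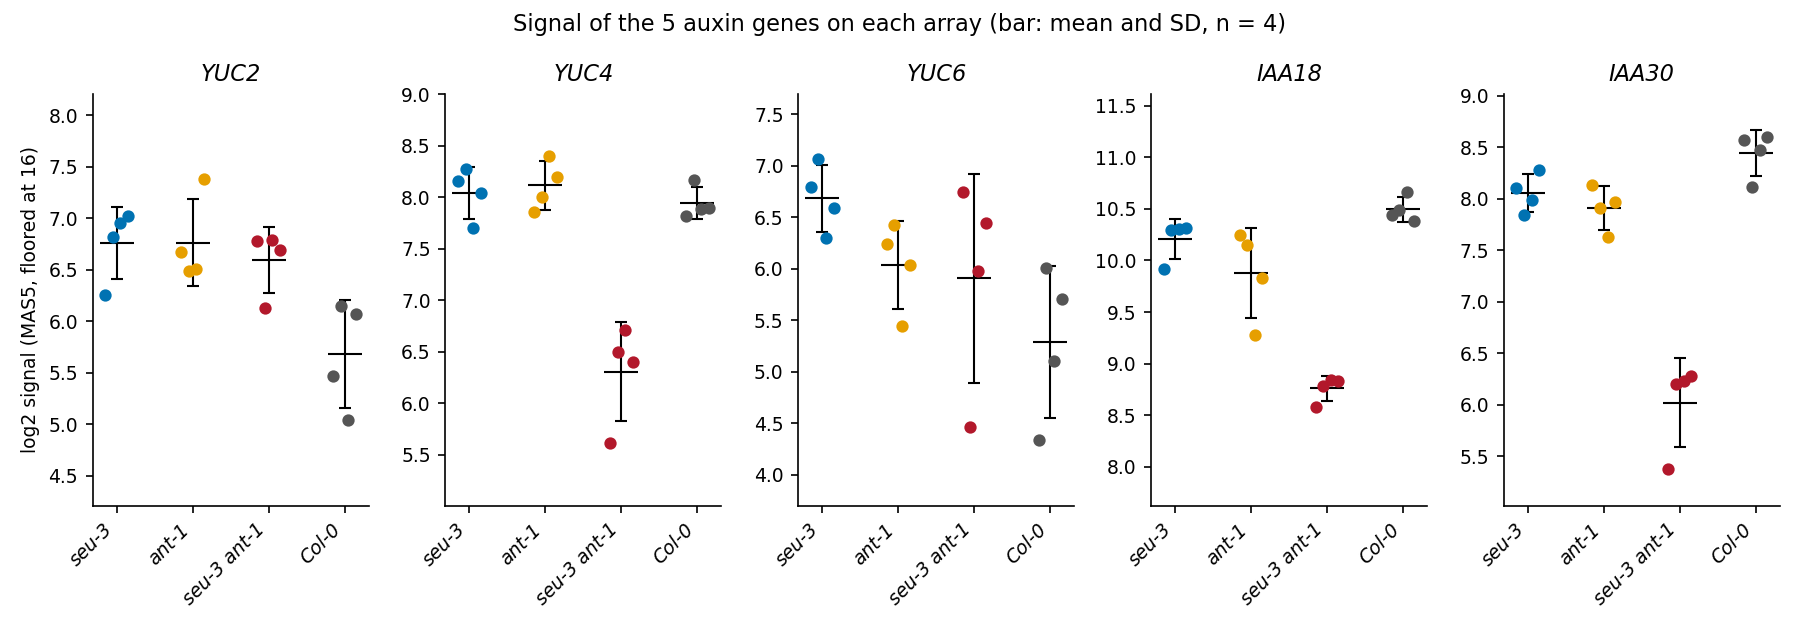
Log2 MAS5 signal of YUC2, YUC4, YUC6, IAA18 and IAA30 on each of the 16 arrays, by genotype. Each point is 1 array, the bars give the mean and SD of 4 arrays, and every panel spans 4 log2 units. The seu-3 ant-1 arrays lie below all others for YUC4, IAA18 and IAA30, and the Col-0 mean is the lowest for YUC2 and YUC6.

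Between seu-3 ant-1 and Col-0, YUC4 was lower and YUC2 higher, while the YUC6 difference of 0.62 was not called and ran from 0.30 to 1.10 when single arrays were left out. The genes were grouped with the contrast between YUC4 and the other 2 in view, so it is given as a description and was not tested. YUC4 stood at 32.2% of its Col-0 level in the double mutant, YUC2 at 189% and YUC6 at 154%. The 3 genes also differed in the single mutants, where YUC4 stood at 107% of Col-0 in seu-3 and 113% in ant-1, YUC2 at 212% in both, and YUC6 at 263% in seu-3 and 168% in ant-1.

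IAA18 was lower in the double mutant than in every other genotype. The signal was 969, 1261, 1264 and 1271 in seu-3, 1212, 1136, 622 and 913 in ant-1, and 382, 439, 458 and 457 in seu-3 ant-1, against 1395, 1440, 1624 and 1333 in Col-0. All 12 mutant arrays were below all 4 Col-0 arrays, and the double mutant arrays were below all of the others. In seu-3 ant-1 the log2 difference from Col-0 was -1.74 (standard error 0.17, limma adjusted p = 1.87e-05), or 30.0% of Col-0. Against seu-3 it was -1.45 (adjusted p = 0.000350) and against ant-1 -1.12 (adjusted p = 0.000616). The single mutant differences of -0.29 in seu-3 (adjusted p = 0.545) and -0.62 in ant-1 (standard error 0.17, adjusted p = 0.0576) did not pass, although none of these arrays overlapped Col-0 (exact two-sided permutation p = 0.0286 for each). Without ant-1 replicate 1 the ant-1 difference for IAA18 was -0.74 and passed (limma adjusted p = 0.0350, in a range of 0.0282 to 0.197 over the alternatives). The ant-1 difference was -0.27 among the arrays with the lower 8 array numbers in the labels and -0.97 among those with the higher 8. In seu-3 ant-1 these values were -1.79 and -1.69. By mean signal the order was seu-3 ant-1 (434 ± 35.7, SD, n = 4), ant-1 (971 ± 265), seu-3 (1191 ± 148) and Col-0 (1448 ± 125), in which ant-1 and seu-3 overlapped (log2 0.33, 95% confidence interval -0.04 to 0.71, for seu-3 against ant-1).

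Between seu-3 ant-1 and Col-0, IAA30 differed the most of the 5 genes. Its signal was 275, 230, 254 and 311 in seu-3, 282, 241, 198 and 250 in ant-1, and 41.7, 73.5, 75.2 and 77.5 in seu-3 ant-1, against 381, 278, 355 and 388 in Col-0. The double mutant arrays again lay below all 12 others, and the highest array of each single mutant overlapped the lowest Col-0 array, replicate 2. The log2 difference between seu-3 ant-1 and Col-0 was -2.42 (standard error 0.19, limma adjusted p = 3.26e-06), which left 18.7% of the Col-0 level. The double mutant was lower than seu-3 by -2.03 (adjusted p = 6.69e-05) and than ant-1 by -1.89 (adjusted p = 3.84e-05), while the single mutants differed from Col-0 by -0.39 in seu-3 (adjusted p = 0.415) and -0.53 in ant-1 (adjusted p = 0.133). The ant-1 difference of IAA30 passed in 1 alternative, without seu-3 ant-1 replicate 1 (-0.53, limma adjusted p = 0.0370, in a range of 0.0370 to 0.310). In order of mean signal seu-3 ant-1 (67.0 ± 16.9, SD, n = 4) was followed by ant-1 (243 ± 34.3), seu-3 (267 ± 34.3) and Col-0 (351 ± 50.8), with seu-3 and ant-1 not distinguishable (log2 0.14, 95% confidence interval -0.27 to 0.55).

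Counted over the 5 genes, seu-3 ant-1 against Col-0 gave 3 lower (YUC4, IAA18, IAA30) and 1 higher (YUC2), where 11.4% of all 22746 probe sets were called lower and 8.3% higher. To be called, a probe set had to differ by more than 0.35 on the log2 scale with an adjusted p below 0.05. Against seu-3, the same 3 genes were lower (5.5% of all probe sets) and none was higher (4.68%). Against ant-1, they were again lower (9.32%) and none was higher (9.7%). In ant-1 against Col-0 only YUC2 was called, higher (1.89% of probe sets were called higher and 3.03% lower). In seu-3 against Col-0 limma called 0 of 5 (1.27% of probe sets higher and 0.914% lower). At an unadjusted p under 0.05 there were 2 of 5, a rule whose share over all probe sets was not computed. The exact permutation test was passed by 3 of 5 (YUC2, YUC6 and IAA18), the same genes given below as without overlap. In seu-3 against ant-1, a comparison added after the data were seen, limma called 0 of 5, with 0 of 5 at an unadjusted p under 0.05 (1.87% of probe sets were called higher and 1.06% lower). The arrays of all 3 genes called lower did not overlap those of Col-0, which held in this direction for 13.1% of probe sets (8.84% in the higher direction, with none of the 5 genes). Against seu-3 the same 3 genes did not overlap (9.27% of probe sets lower and 6.8% higher), as against ant-1 (11.2% lower and 10.4% higher). Between seu-3 and ant-1 all 5 genes overlapped (3.95% of probe sets were without overlap and lower, 5.66% higher). In seu-3 against Col-0 the arrays did not overlap for YUC2 and YUC6 (3.58% of probe sets higher) and IAA18 (4.13% lower), and in ant-1 for YUC2 (4.42% higher) and IAA18 (6.77% lower).

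Centring each array on its median raised the ant-1 against Col-0 difference of every probe set by 0.16 on the log2 scale, and the other differences from Col-0 by less than that. The share of calls that were lower was then 24.2% against 41.8% in seu-3, 21.2% against 61.6% in ant-1 and 43.2% against 57.9% in seu-3 ant-1, each time the value with centring first. The 3 lower calls and the higher YUC2 call in seu-3 ant-1 held on both scales, and YUC2 in seu-3 became 1.16 (limma adjusted p = 0.0331, in a range of 0.0224 to 0.176 over the alternatives). In seu-3 ant-1 the marker SPT was also lower than in Col-0, by -1.38 (adjusted p = 0.000184). Its part in the lower YUC4, IAA18 and IAA30 signals was not tested. In whole gynoecia, fewer cells of a type and less RNA per cell cannot be told apart.

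The comparison at the centre of the design was whether the double mutant departs from the sum of both single mutants. If the seu-3 and ant-1 log2 differences simply added up, seu-3 ant-1 would have a signal of 297 for YUC4, and the mean was 79.3 on the same scale (26.6%). The departure of YUC4 was -1.91 (standard error 0.30, unadjusted p = 2.09e-05, limma adjusted p = 0.00577). IAA30 stood at 35.3% of its additive level, a departure of -1.50 (standard error 0.27, unadjusted p = 9.15e-05, adjusted p = 0.0107). These were the 2 genes past an adjusted p under 0.05, a rule that called 2.33% of probe sets below additive and 2.78% above.

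The other 3 departures passed at an unadjusted p under 0.05 but not after adjustment. IAA18 was at 56.2% of additive (-0.83, standard error 0.25, unadjusted p = 0.00480, limma adjusted p = 0.0678). YUC2 was at 42.1% (-1.25, standard error 0.39, unadjusted p = 0.00748, limma adjusted p = 0.0854) and YUC6 at 34.8% (-1.52, standard error 0.66, unadjusted p = 0.0371, adjusted p = 0.207). YUC2 and YUC6 thus fell short of a sum that lay far above Col-0 (additive signal 230 and 173), while the other 3 genes lay below both Col-0 and the sum. With the unadjusted rule, 5 of 5 genes were below additive, as were 10.1% of all probe sets (10.4% were above). On its own normalized values of these arrays, the study listed IAA18 as lower than additive in the double mutant, at an alpha of 0.05. That list also required a level significantly below wild type in at least 1 single mutant.

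The YUC6 departure lost its unadjusted p under 0.05 without Col-0 replicate 1 or 3, ant-1 replicate 1, 2 or 4, seu-3 replicate 1 or 2, or seu-3 ant-1 replicate 2 or 3, with limma log2 values between -1.55 and -1.04 and unadjusted p between 0.0503 and 0.0799. With arrays centred on their medians, 71.2% of the calls for this contrast were below additive, against 49.2% as scaled by the authors. On the linear scale, where signals rather than log2 values are summed, IAA18 had a departure of -280.1 signal units (standard error 165) and did not pass an unadjusted threshold of 0.05, and the other 4 genes did.

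**Figure D2:**
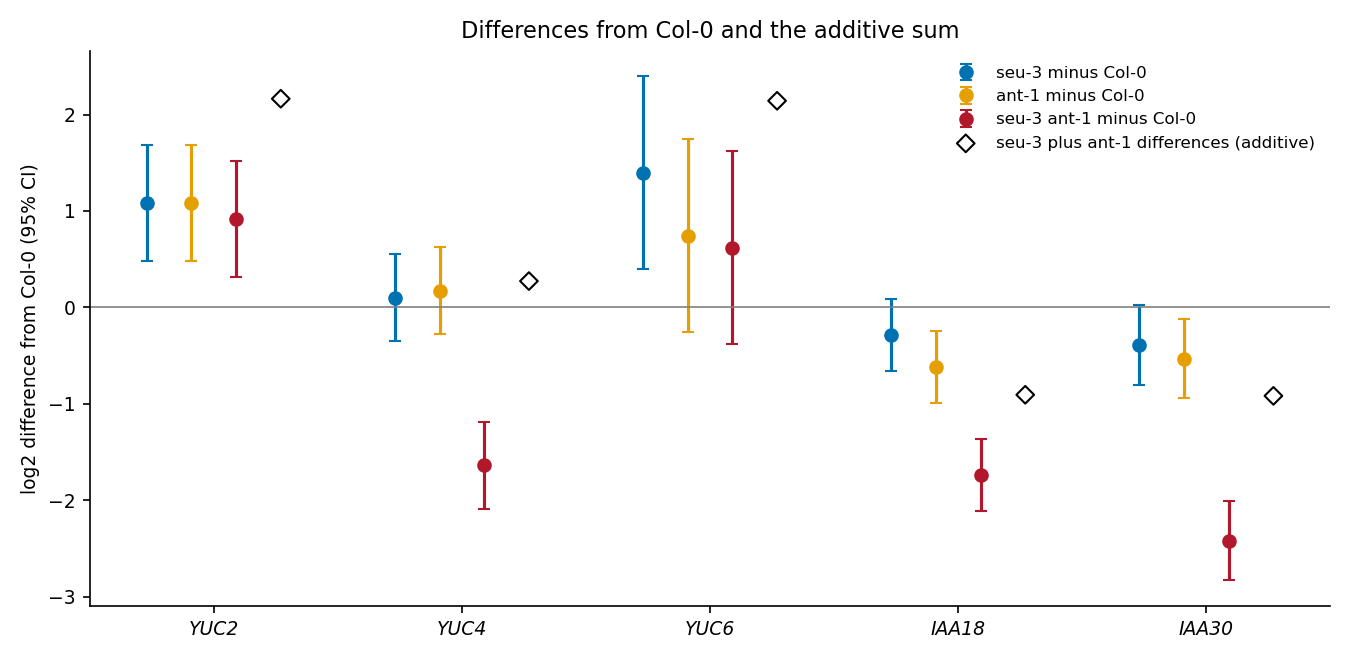
Log2 difference from Col-0 with its 95% confidence interval for the 2 single mutants and for seu-3 ant-1, and the sum of the seu-3 and ant-1 differences (open diamonds). The seu-3 ant-1 value lies under the diamond for all 5 genes, above 0 for YUC2 and YUC6 and below 0 for YUC4 (-1.63), IAA18 (-1.74) and IAA30 (-2.42).

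Of the 11 YUC genes 5 had a named probe set. In seu-3 ant-1 against Col-0, 1 was lower (YUC4), 1 higher (YUC2) and 3 not called (11.4% of all probe sets were called lower and 8.3% higher). The YUC genes outside the 5 were YUC7 (0.05, 95% confidence interval -0.56 to 0.65) and YUC11 (0.03, 95% confidence interval -0.69 to 0.76), both with signals at or under the floor on most arrays. Of the 29 Aux/IAA genes 9 were named, of which 2 were lower (IAA18, IAA30), 1 higher (IAA33) and 6 not called. The shares over all probe sets were again 11.4% lower and 8.3% higher. Among the uncalled, IAA1 had an unadjusted limma p under 0.05. Its signal ran from 53.4 to 89.2 in seu-3 ant-1 and from 9.82 to 51.4 in Col-0, without overlap. That held in the higher direction for 8.84% of all probe sets. Against ant-1, IAA1 was called higher in the double mutant (9.7% of probe sets were). IAA29 was under the floor on 3 of 4 seu-3 ant-1 and all Col-0 arrays. IAA34 was under it on 3 of 4 seu-3 ant-1 arrays and on 1 of 4 Col-0 arrays. A fall of IAA29 could not show, and the size of a fall of IAA34 is cut short by the floor. The count of higher Aux/IAA genes was 2 without Col-0 replicate 3 or with a floor of 32. In either direction, 4078 and 4249 of all 22746 probe sets were called in these alternatives. Without the dimmest 40% of probe sets (4431 of 13648 called) the count was 0, and IAA33 was not tested there. In seu-3 against Col-0, limma called 0 of the 9 Aux/IAA genes, with 0 at an unadjusted p under 0.05. In ant-1 it called 0 (3.03% of all probe sets were called lower and 1.89% higher). IAA18 and IAA30, both chosen beforehand, had an unadjusted p under 0.05, a rule whose share over all probe sets was not computed. None of the 3 TAA genes of the first synthesis step, 6 receptor genes or 15 auxin response factor genes had a named probe set, so these are not analysed here.

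IAA33, a noncanonical Aux/IAA gene, was higher in the double mutant. Its signal was 29.0, 26.3, 2.98 and 49.8 in seu-3, 15.6, 27.7, 1.45 and 13.0 in ant-1, and 73.3, 80.1, 84.6 and 97.7 in seu-3 ant-1, against 1.75, 4.45, 8.05 and 27.4 in Col-0. All seu-3 ant-1 arrays lay above all others, and 3 of 4 arrays in ant-1 and in Col-0 were under the floor, where values have no order. With those arrays set to 16, IAA33 was at least 4.56-fold higher in seu-3 ant-1 than in Col-0 (log2 difference 2.19, limma adjusted p = 0.000210). With a floor of 32, above all 4 Col-0 arrays, the log2 difference was at least 1.38 (limma adjusted p = 1.31e-05, in a range of 1.31e-05 to 0.00149 over the alternatives). In seu-3 it was 0.61 (adjusted p = 0.420), and for ant-1 no difference is given, since both groups were mostly under the floor.

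**Figure D3:**
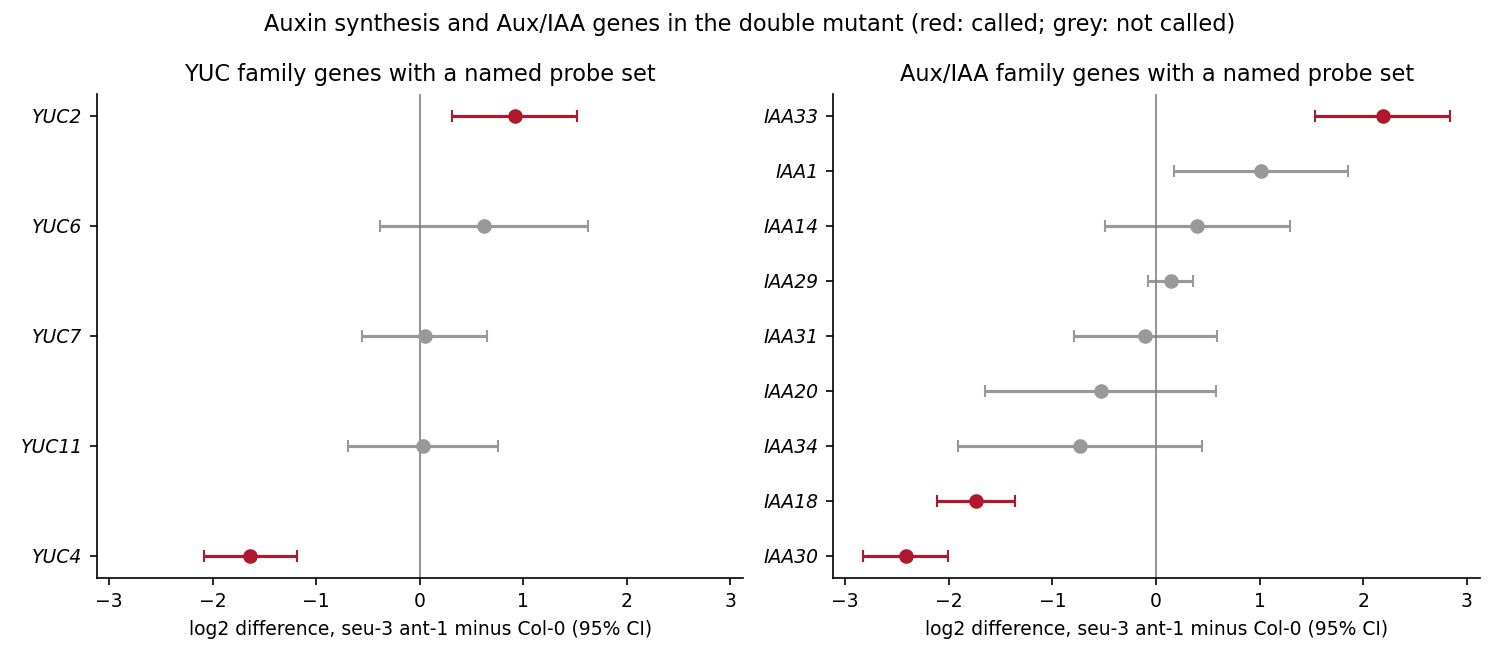
Log2 difference of seu-3 ant-1 minus Col-0 with its 95% confidence interval for the 5 YUC and 9 Aux/IAA genes with a named probe set, sorted by size. Called genes are red and the others grey. YUC4 and YUC2 lie at opposite ends of the YUC panel, and IAA30 and IAA33 at opposite ends of the Aux/IAA panel. The IAA33 value (2.19) is a lower bound, with 3 of 4 Col-0 arrays set to the floor.

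Among auxin transport genes 1 of 17 was named, WAG2, which encodes a kinase that phosphorylates PIN auxin efflux carriers. Its signal was 58.0, 77.7, 36.4 and 52.3 in seu-3, 44.5, 49.6, 43.8 and 77.9 in ant-1, and 18.0, 9.11, 28.0 and 13.1 in seu-3 ant-1, against 69.8, 84.8, 87.9 and 84.6 in Col-0. The double mutant arrays were below all others, 2 of them under the floor. With these set to 16, WAG2 was at least 4.30-fold lower in seu-3 ant-1 than in Col-0 (log2 -2.10, limma adjusted p = 6.20e-05). With a floor of 32, above all 4 double mutant arrays, the log2 difference was -1.35 or lower (limma adjusted p = 0.000682, in a range of 2.51e-05 to 0.00151 over the alternatives). WAG2 differed from Col-0 by -0.59 in seu-3 (adjusted p = 0.309) and -0.64 in ant-1 (adjusted p = 0.165). Of 7 GH3 genes, whose enzymes join auxin to amino acids, 4 were named. In ant-1 against Col-0 limma called 0 of them, with 0 at an unadjusted p under 0.05 (3.03% of all probe sets were called lower and 1.89% higher). In seu-3 ant-1 it called 0 (11.4% lower and 8.3% higher), with GH3.5 at an unadjusted p under 0.05. The count rose to at most 2, both lower, when seu-3 ant-1 replicate 2 was left out (2257 of 22746 probe sets were then called lower). GH3.1 and GH3.17 were under the floor on at least 3 of 4 arrays in seu-3 ant-1 and in Col-0. A fall in these 2 genes could hardly be called. In seu-3 against Col-0, GH3.5 was lower, a gene picked out after its values were seen. Its signal was 84.8, 82.1, 77.3 and 118 in seu-3, 277, 194, 158 and 238 in ant-1, and 119, 290, 129 and 158 in seu-3 ant-1, against 323, 208, 266 and 330 in Col-0. All seu-3 arrays lay below all others. The log2 difference of GH3.5 was -1.64 in seu-3 against Col-0 (standard error 0.27, limma adjusted p = 0.00676) and -1.25 in seu-3 against ant-1 (adjusted p = 0.0257). The double mutant differed from Col-0 by -0.77 (adjusted p = 0.0601) and from seu-3 by 0.87, with all arrays above those of seu-3 (adjusted p = 0.0561), and neither was called. Its departure from additive was 1.26 (unadjusted p = 0.00584, adjusted p = 0.0744).

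The signals of the 5 genes were then set against each other over the 16 arrays as Pearson correlations of log2 signal. These arrays share their genotypes, so the values describe the pattern and carry no test. IAA18 and IAA30 had r = 0.94, YUC4 and IAA30 0.90, and YUC4 and IAA18 0.80. Within genotypes, after each genotype's mean was taken out, these were 0.43, 0.32 and -0.19. YUC2 and YUC6 had r = 0.66, and 0.48 within genotypes, while YUC2 and YUC4 had -0.09, and -0.04 within genotypes. Taking out the genotype means thus lowered all 3 values among YUC4, IAA18 and IAA30.

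Of 8996 probe sets that named 1 gene and lay above the floor on at least 12 arrays, those most like IAA30 over the 16 arrays were YAB3 (r = 0.97), a YABBY gene of abaxial cell fate, FIP2 (0.96) and AT5G23850 (0.96). AT5G23850 was also the most like IAA18 (0.98), followed by VDD (0.95), a B3-domain gene known from the female gametophyte, and AT1G34770 (0.94). YAB3 differed between seu-3 ant-1 and Col-0 by -5.11 and VDD by -3.52 on the log2 scale, beside -2.42 for IAA30 and -1.74 for IAA18. For YUC4 the most similar were AT1G53180 (0.96), AT5G60150 (0.95) and AT1G03710 (0.95). For YUC2 they were AT3G12440 (0.81), AT1G58170 (0.79) and AT3G07810 (0.77), and for YUC6 AT2G45340 (0.78), AT4G37820 (0.77) and AT5G16030 (0.77). The top values for YUC2 and YUC6 were thus lower than those for the other 3 genes.

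**Figure D4:**
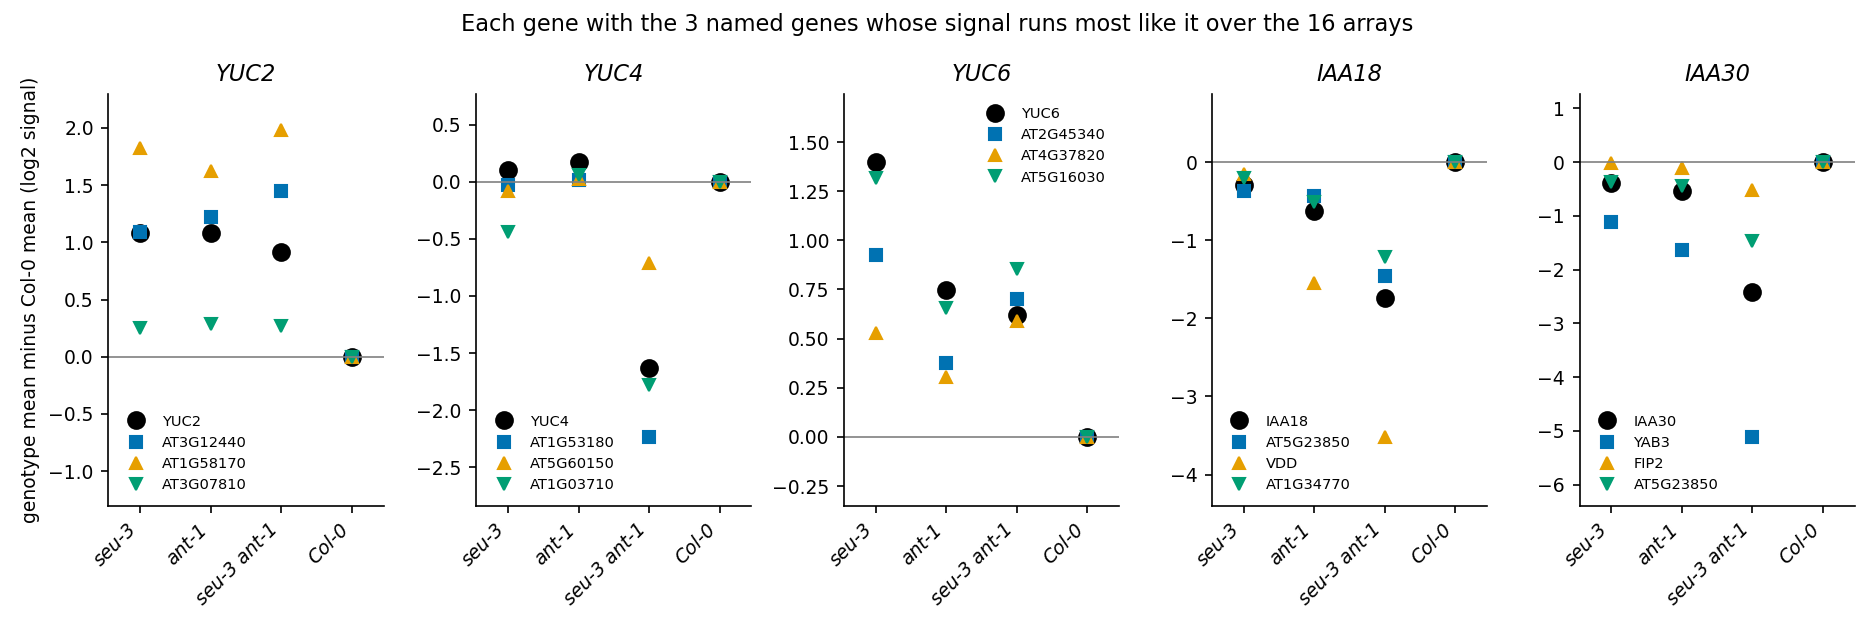
Genotype mean minus Col-0 mean of log2 signal for each of the 5 auxin genes (black circles) and the 3 named genes most like it over 16 arrays (coloured symbols). The YUC4, IAA18 and IAA30 panels have their lowest points in seu-3 ant-1, down to -5.11 for YAB3, and in the YUC2 and YUC6 panels all mutant means lie above Col-0.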

How the data were processed

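Transcripts were measured on 16 ATH1 arrays, 4 per genotype, and genotypes were taken from the labels. The authors deposited linear signal intensities, which they made with MAS5 and scaled to a common trimmed mean (2% trimmed mean 494.8 to 496.0). The authors' own tests used Loess-normalized values, not used here.

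After 64 control probe sets were left out, signals under 16 were set to 16, log2 was taken and the other 22746 probe sets entered limma 3.58.1 under R 4.3.3 with 1 mean per genotype and Benjamini-Hochberg adjustment over all probe sets. Exact permutation tests and figures were made in Python 3.11.15. Names came from the platform annotation and, for 340 probe sets, from the identifier columns of the study's table of all probe sets; 8390 probe sets had no name and 503 several, so unnamed family members may be on the array. On simulated data with log2 changes of 1 between seu-3 ant-1 and Col-0, 95 of 116 bright and 22 of 84 dim changed probe sets were recovered, with 8 of the unchanged ones called.

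Members, lists and tests were chosen with earlier results of these data known, and the seu-3 against ant-1 comparison was added after the data were seen. Genes named were the 5 members, called YUC, TAA and Aux/IAA genes, the most changed called genes of other auxin lists, and the 3 most similar genes. Alternatives covered the floor, offset, centring, quantile normalization, filters, the variance prior, array number sets and leaving out each array.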

Additional observations from a re-analysis of the deposited data

Results flagged for a closer look

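In 6 of 28 groups of 4 arrays tested for an outlying array, the gap of 1 array to its nearest neighbour exceeded Dixon's 95% critical share of the group's log2 range (which chance exceeds in about 1 group of 20). YUC2 in seu-3 ant-1 had a low array (replicate 2, 69.8; gap 0.846 of the range), and without it the log2 difference from Col-0 was 1.07 and still called. IAA30 in seu-3 ant-1 had a low array (replicate 1, 41.7; gap 0.914), without which the difference was -2.21. IAA18 in seu-3 had a low array (replicate 1, 969; gap 0.971), without which the difference from Col-0 was -0.19. WAG2 in Col-0 had a low array (replicate 1, 69.8; gap 0.834). IAA33 had 1 array above the floor in ant-1 (replicate 2, 27.7) and 1 in Col-0 (replicate 4, 27.4), with gaps of 1.0 because the other 3 were at the floor.

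The effect of ant-1 with and without seu-3 differed by the interaction term for YUC4 (-1.91, limma adjusted p = 0.00577) and IAA30 (-1.50, limma adjusted p = 0.0107). The ant-1 against Col-0 difference was 0.17 for YUC4 and -0.53 for IAA30, and the seu-3 ant-1 against seu-3 difference was -1.73 and -2.03.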

How the results depend on the processing

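The lower calls of YUC4, IAA18 and IAA30 in seu-3 ant-1 against Col-0, seu-3 and ant-1 kept their direction in every alternative run and their side of the threshold in each that has a test. In seu-3 against Col-0, 1 of the 5 genes was called with median centring (554 of all 22746 probe sets), without the dimmest 40% of probe sets (653 of 13648) and with an intensity trend and robust prior (639 of 22746), and 3 by the exact permutation test. In ant-1 it was 2 without the dimmest 40% (1518 of 13648 probe sets), with the trend (1322 of 22746) and by permutation. It was 0 from the arrays of the 2 genotypes alone (390 of 22746), and 0 to 1 when single arrays were left out (530 to 1229 of 22746). The share of all probe sets that pass the permutation test was not computed. In seu-3 ant-1 3 to 4 were called when single arrays were left out (3773 to 4504 of 22746 probe sets). Below additive there were 2 at adjusted p (2.33% of all probe sets) and 4 to 5 without single arrays (2091 to 2393 of 22746). YUC2 in seu-3 ant-1 was not called from the 2 genotypes alone (0.92, limma adjusted p = 0.0781, in a range of 0.0122 to 0.0933) or by permutation (exact p = 0.0571), and ran from 0.70 to 1.07 without single arrays. The cause was not tested.

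Changes of sign occurred only among uncalled differences. Against ant-1, seu-3 ant-1 changed sign for YUC6 with a floor of 32 (0.0088) and ran from -0.41 to 0.36 without single arrays, and for YUC2 from -0.26 to 0.040. Seu-3 against ant-1 ran from -0.092 to 0.21 for YUC2, -0.16 to 0.041 for YUC4 and -0.13 to 0.24 for WAG2, which was -0.036 with centring and -0.0072 with quantile normalization. IAA33 in ant-1 against Col-0 was 0.0 with a floor of 32, -0.035 with quantile normalization and -0.19 to 0.20 without single arrays. WAG2 departed from additive by -0.12 with a floor of 32, against -0.88. IAA33 was not among the probe sets tested without the dimmest 40%. GH3.5 in seu-3 was called in every alternative run and ran from -1.77 to -1.55 without single arrays. Of 1943 values 1815 were scored as unchanged. For single differences this meant the same direction and side of the threshold. For counts of calls it allowed a small shift, and for the array number sets a difference within the spread.

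Replicate arrays are biological replicates from separate pools of gynoecia. No paired analysis was possible because the labels give no shared replicate numbers. Each of the 5 genes had 1 probe set, and no other probe set was compared. IAA33 and WAG2 had arrays under the floor, so their differences between seu-3 ant-1 and Col-0 are bounds. YUC2 and YUC6 had no array under the floor but were dim in Col-0. Fewer changes of dim probe sets were recovered in simulated data.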
